A study of Mus musculus with 30 samples.

Results

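The comparison concerns the abdominal aorta of mice that received angiotensin II together with baicalin, set against mice that received saline. The samples labelled AngII+BAI (5) and Control (5) were taken, which is 10 of the 30 libraries of the series. All mice were wild-type C57BL/6, and the labels give neither age nor sex. AngII+BAI mice were infused with angiotensin II at 500 ng/kg/min and were given baicalin at 5 mg/kg/day, both over 28 days. The 5 AngII mice, whose values are given beside the others, had the same infusion with saline in place of the compound. Control mice had saline for both treatments over 28 days. The series holds no group with baicalin and no angiotensin II, so a difference from saline cannot be assigned to the infusion or to the compound from this comparison alone. The labels do not state that each library of a group came from a separate animal, so the p-values measure the spread between these libraries.

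Angiotensin II is a peptide hormone that acts through its type 1 receptor on arterial smooth muscle, raises blood pressure and over weeks promotes thickening and matrix deposition in the arterial wall. Baicalin is a flavone glucuronide from the root of Scutellaria baicalensis. The wall of the abdominal aorta holds contractile smooth muscle, endothelium and adventitial fibroblasts, and brown and white fat lie around it. The question put to the data was which transcripts stayed or became different from saline when both agents were present.

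Total RNA was sequenced after removal of ribosomal RNA, and transcript levels are in FPKM (fragments mapped to a transcript, corrected for its length and for the depth of the library). FPKM values of annotated transcripts were summed to 14538 genes, of which 12667 reached 1 FPKM in at least 5 of the 15 libraries and were tested. Read from the steps of the low values, the libraries held 69.8 to 80.8 M fragments in AngII+BAI, 75.9 to 78.8 M in AngII and 74.6 to 79.4 M in Control. Smooth muscle markers were present in every library: Acta2 (smooth muscle actin) spanned 869 to 6933 FPKM in AngII+BAI aortas, 3312 to 4331 FPKM in AngII aortas and 3083 to 5585 FPKM in Control aortas. Ucp1, the uncoupling protein of brown fat, spanned 627 to 2299.8 FPKM in AngII+BAI aortas and 526 to 2369 FPKM in Control aortas, so brown fat RNA was present in both groups.

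The AngII+BAI libraries were not alike. The level of a gene list in a library is given as the mean of log2(FPKM + 1) over its tested members. The contractile list stood at 6.72, 6.73, 5.52, 6.62 and 5.75 in AngII+BAI libraries 1 to 5, against 6.32 to 6.88 in Control libraries, so libraries 3 and 5 lay below every Control library. The macrophage list stood at 4.01, 3.80, 5.75, 3.68 and 5.09 in AngII+BAI libraries 1 to 5, against 3.17 to 3.76 in Control libraries, and was highest in the same libraries 3 and 5. In AngII+BAI library 1, 21.5% of the listed transcripts were at 0, against 8.11% to 11.5% in the other AngII+BAI libraries and 9.08% to 10.1% in Control libraries. Skeletal muscle genes reached 6.88 in AngII+BAI library 3 and 6.16 and 7.62 in Control libraries 1 and 2. In bulk tissue, fewer cells of a type and less RNA per cell cannot be told apart.

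**Figure D1:**
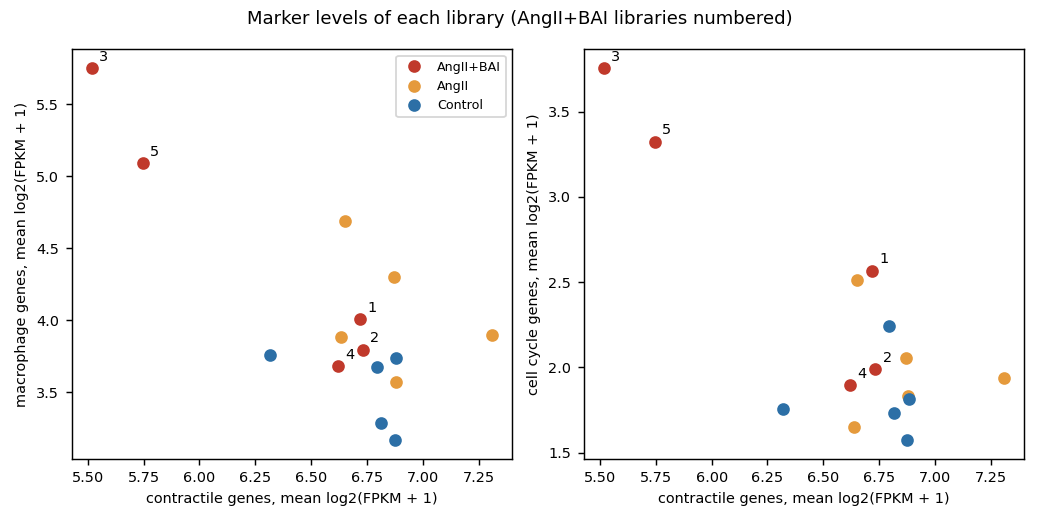
Each point is 1 library, with the mean log2(FPKM + 1) of contractile genes on the x axis and of macrophage genes (left) or cell cycle genes (right) on the y axis. AngII+BAI libraries 3 and 5 stood at contractile levels of 5.52 and 5.75, apart from all other libraries, and had the highest macrophage and cell cycle levels.

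Against this spread, 1 gene passed the test. In limma's fit over the 15 libraries, with Benjamini-Hochberg adjustment over all genes tested and a threshold of 0.05, Ttc9 was higher in AngII+BAI than in Control aortas, and no gene was lower. The called share was 0.00789% of the genes tested for higher and 0.0% for lower. At an unadjusted p under 0.05 there were 1315 higher genes (10.4%) and 571 lower genes (4.51%). All 5 AngII+BAI libraries lay above all 5 Control libraries for 287 genes (2.27%) and below them for 129 genes (1.02%), which is 3.28% in either direction. This split depended on scaling: the counts were 183 above and 259 below after scaling by median ratios, and 206 above and 204 below after leaving out mitochondrially encoded genes. When all 30 libraries of the series shared 1 estimate of the spread, limma called 146 genes higher (1.1% of 13223 tested) and 44 lower (0.333%). These were 190 genes (1.44%). Of the 188 of them tested in the 15-library fit, 87 had all AngII+BAI libraries above and 34 had all AngII+BAI libraries below the Control libraries. A shared estimate takes the spread as equal in all groups. Limma's library weights, lower where a library strays more from its group, were 0.232, 0.301 and 0.355 for AngII+BAI libraries 1, 3 and 5. They were 1.19 and 1.65 for libraries 2 and 4 and 1.25 to 1.93 in Control libraries. The calls with all 30 libraries may thus understate the spread of AngII+BAI, here and in the lists below. Over all genes tested, the fold change had a median of 0.09 (log2), and scaling by median ratios moved this median to -0.04. Unless stated otherwise, a fold change is that of AngII+BAI over Control on the log2(FPKM + 1) scale and is given ± its standard error (SE); for low genes this scale gives too small a change.

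Ttc9, which encodes a protein with tetratricopeptide repeats (ENSMUSG00000042734, chr12:81631249-81667557 on the plus strand, mm10), had 8.86, 7.34, 7.92, 8.80 and 11.4 FPKM in AngII+BAI aortas, 4.13, 4.26, 9.19, 3.12 and 7.66 FPKM in AngII aortas and 1.68, 1.72, 0.453, 0.664 and 2.23 FPKM in Control aortas. Every AngII+BAI library lay above every Control library, and the AngII libraries lay above the Control libraries too. Ttc9 rose in AngII+BAI aortas by 2.12 ± 0.28 (SE) on the log2 scale (limma, adjusted p = 0.0223, 5 libraries a group), with means of 8.87 ± 1.56 FPKM and 1.35 ± 0.757 FPKM (SD). Across 31 alternatives its fold change spanned 1.97 to 2.93 and its adjusted p 0.00728 to 0.255, and it remained past the threshold in 20 of them. The adjusted p was 0.0597, 0.101 and 0.0852 without AngII+BAI library 3, 4 or 5, and 0.0614, 0.0778 and 0.108 without Control library 1, 3 or 4.

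Lgals3, Emp1 and Lims1 were among the next genes by p in the higher direction. Emp1, a membrane glycoprotein of the family of peripheral myelin protein 22, had 95.0, 68.9, 134, 65.6 and 237 FPKM in AngII+BAI aortas, 18.2, 80.5, 125, 12.1 and 14.9 FPKM in AngII aortas and 12.4, 11.8, 12.7, 11.1 and 13.2 FPKM in Control aortas. The Control libraries were tight and low, the AngII+BAI libraries were all several-fold above them, and only AngII libraries 2 and 3 of the AngII group reached the AngII+BAI range (fold change over Control 3.03 ± 0.56 SE, limma adjusted p = 0.154). Lgals3 encodes galectin-3, a sugar-binding lectin abundant in macrophages, and had 96.1, 31.8, 118, 40.5 and 72.0 FPKM in AngII+BAI aortas, 23.8, 39.5, 48.2, 20.47 and 10.8 FPKM in AngII aortas and 14.6, 13.2, 13.2, 13.2 and 17.2 FPKM in Control aortas. Its groups AngII+BAI and Control did not overlap (fold change 2.09 ± 0.39 SE, limma adjusted p = 0.154). Lims1, an adaptor of focal adhesions, had 21.6, 18.7, 31.4, 22.1 and 26.5 FPKM in AngII+BAI aortas, against 3.25, 4.76, 4.82, 5.56 and 19.7 FPKM in Control aortas, and Control library 5 reached into the AngII+BAI range.

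**Figure D2:**
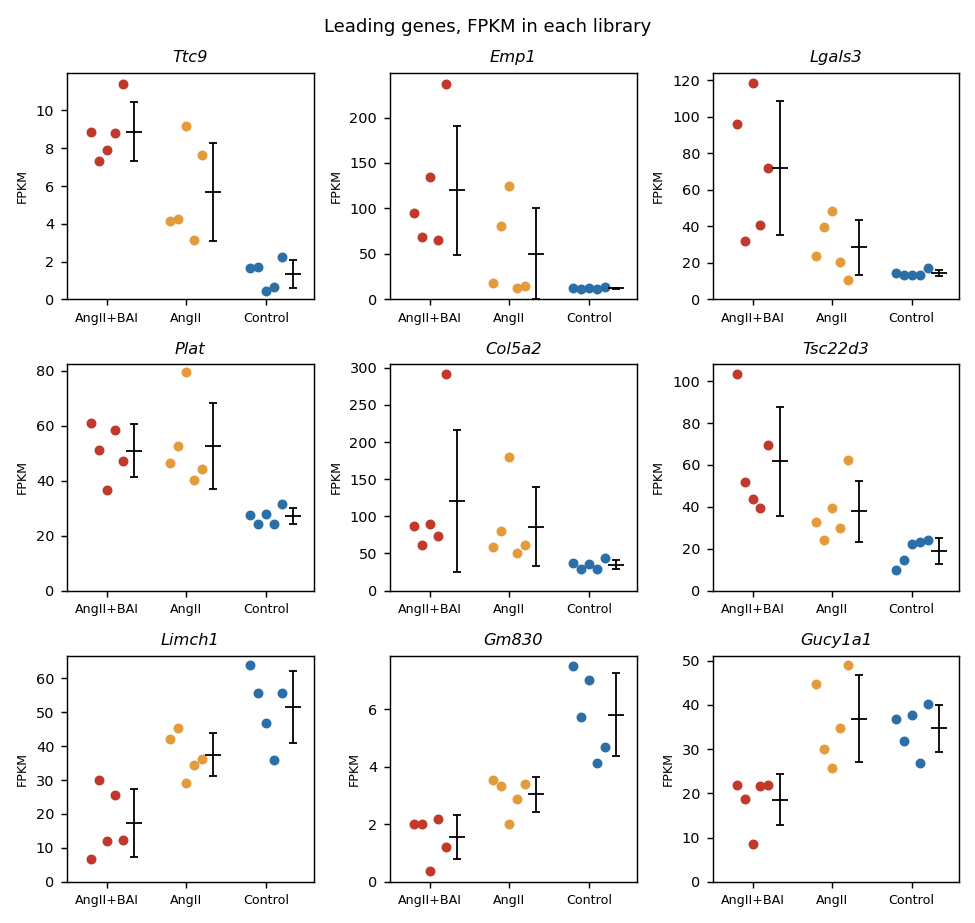
FPKM of 9 genes in each of 15 libraries (points, in library order within a group), with the group mean and SD as black bars, for AngII+BAI, AngII and Control aortas on linear axes from 0. For each of these genes the 5 AngII+BAI points lie on 1 side of the 5 Control points, while AngII points lie near AngII+BAI for Plat and near Control for Gucy1a1.

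In the lower direction the smallest p-values belonged to Gm830, Limch1, Gpr21, Gm45470 and Gm45909. Limch1, a protein with LIM and calponin homology domains that binds actomyosin (ENSMUSG00000037736, chr5:66745827-67057158 on the plus strand), had 6.80, 30.04, 12.04, 25.6 and 12.2 FPKM in AngII+BAI aortas, 42.3, 45.4, 29.1, 34.6 and 36.1 FPKM in AngII aortas and 63.9, 55.6, 46.7, 36.0 and 55.7 FPKM in Control aortas. All AngII+BAI libraries lay below all Control libraries, and the AngII libraries overlapped both groups. The fold change was -1.67 ± 0.31 (SE; limma, adjusted p = 0.154) and the adjusted p was 0.00609 with all 30 libraries, within a range of 0.00609 to 0.912 over 31 alternatives. With its highest transcript alone the fold change of Limch1 was -0.32. The predicted gene Gm830 had 2.001, 2.01, 0.370, 2.17 and 1.19 FPKM in AngII+BAI aortas, 3.55, 3.34, 2.02, 2.88 and 3.40 FPKM in AngII aortas and 7.50, 5.71, 7.02, 4.14 and 4.68 FPKM in Control aortas, with no overlap between AngII+BAI and Control (fold change -1.46 ± 0.24 SE, limma adjusted p = 0.0931). Gpr21, an orphan G-protein-coupled receptor, spanned 0 to 0.571 FPKM in AngII+BAI and 1.03 to 1.40 FPKM in Control aortas. The predicted genes Gm45470 and Gm45909 had AngII+BAI maxima of 0.920 and 0.332 FPKM, below Control minima of 1.33 and 0.623 FPKM. No AngII+BAI library reached 1 FPKM for Gpr21, Gm45470 or Gm45909. These genes passed the filter on low values only through Control and AngII libraries. The filter thus favoured lower values in AngII+BAI, and their p-values are no support for a difference.

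Matrix genes stood above saline as a group, also without the AngII+BAI libraries that stood apart. Of 40 fibrillar collagen and matrix genes, 34 had a fold change above 0 (59.3% of all genes did). All AngII+BAI libraries lay above all Control libraries for 8 of them (2.27% of all genes). None passed the adjusted threshold in the 15-library fit. At an unadjusted p under 0.05, 16 were higher (10.4% of all genes) and 1 was lower (4.51%). With all 30 libraries, 3 (Col5a2, Spp1 and Comp) were called higher (1.1% of all genes). The median log2 fold change of the 40 genes was 0.74, against 0.09 for all genes. It was 0.74 without AngII+BAI libraries 3 and 5 and 0.64 without libraries 1, 3 and 5. AngII over Control, which shares the Control libraries, had a median of 0.69 for the same genes. Cartilage markers (a list added after the data were seen) summed to 3.49 to 219 FPKM in AngII+BAI libraries, with the 219 FPKM in library 5. In Control libraries they summed to 3.30 to 7.11 FPKM, but over fewer genes. Of the markers, 6 were listed for AngII+BAI and 4 for Control, where Col10a1 and Matn3 were not listed. The part of cartilage markers in the matrix values of AngII+BAI library 5 was not tested.

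Among the structural members, Col5a2, a chain of type V collagen that sets fibril diameter, had 87.5, 60.7, 90.3, 73.7 and 291 FPKM in AngII+BAI aortas, 58.5, 80.1, 179.9, 50.9 and 60.9 FPKM in AngII aortas and 36.9, 28.9, 35.6, 29.2 and 43.4 FPKM in Control aortas. Library 5 was far above the others, but all AngII+BAI libraries exceeded all Control libraries (fold change 1.52 ± 0.40 SE, limma adjusted p = 0.183). Col1a1, a chain of the main fibril-forming collagen of the arterial wall, had 302, 341, 403, 299.7 and 2976 FPKM in AngII+BAI aortas, 401, 435, 1568, 297 and 626 FPKM in AngII aortas and 211, 149, 171, 159 and 237 FPKM in Control aortas, and Col3a1, the chain of type III collagen, had 627, 345, 778, 424 and 3691 FPKM in AngII+BAI aortas, against 287, 183, 198, 195 and 288 FPKM in Control aortas. For both genes the groups AngII+BAI and Control did not overlap, AngII+BAI library 5 was the highest, and the adjusted p was 0.281 for Col1a1 and 0.241 for Col3a1. Eln, which encodes elastin, spanned 212 to 504 FPKM in AngII+BAI and 99.8 to 323 FPKM in Control aortas, which overlap (fold change 1.08 ± 0.41 SE). Among glycoproteins of injured matrix, Spp1 (osteopontin) had 60.2, 25.9, 602, 19.4 and 290.2 FPKM in AngII+BAI aortas, 4.30, 8.05, 147, 5.19 and 9.34 FPKM in AngII aortas and 2.001, 0.667, 0.843, 0.997 and 29.9 FPKM in Control aortas. Control libraries 1 to 4 were far below every AngII+BAI library, and Control library 5 overlapped the AngII+BAI range. Postn, encoding periostin of activated fibroblasts, had 1146, 918, 408, 969.8 and 1911 FPKM in AngII+BAI aortas, against 431, 319, 489, 326 and 545 FPKM in Control aortas, and AngII+BAI library 3 lay among the Control libraries. Comp, a pentameric matrix protein, had 40.8, 44.7, 14.6, 27.5 and 135 FPKM in AngII+BAI aortas, against 12.4, 9.73, 13.4, 17.4 and 11.5 FPKM in Control aortas, with library 3 again within the Control range. Thbs1, encoding thrombospondin-1, an activator of latent TGF-beta (chosen after its values were seen), spanned 16.3 to 207 FPKM in AngII+BAI, 20.9 to 84.0 FPKM in AngII and 7.14 to 14.9 FPKM in Control aortas.

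Among proteases, Plat, which encodes tissue plasminogen activator, had 61.1, 51.0, 36.8, 58.6 and 47.1 FPKM in AngII+BAI aortas, 46.4, 52.8, 79.6, 40.3 and 44.2 FPKM in AngII aortas and 27.4, 24.3, 27.9, 24.4 and 31.4 FPKM in Control aortas. Both infused groups lay above Control without overlap, with fold changes of 0.87 ± 0.18 (SE) for AngII+BAI and 0.90 ± 0.18 (SE) for AngII (limma, adjusted p = 0.183 and 0.357). Timp1, an inhibitor of metalloproteinases, had 111, 29.4, 362, 31.3 and 174 FPKM in AngII+BAI aortas, against 14.0, 5.96, 9.33, 9.45 and 38.9 FPKM in Control aortas, where only libraries 2 and 4 fell below the highest Control library. Ctsk, the collagen-cleaving cathepsin K, had 30.5, 24.4, 11.0, 20.8 and 109 FPKM in AngII+BAI aortas, against 14.0, 9.42, 9.69, 9.72 and 12.7 FPKM in Control aortas, and library 3 lay within the Control range. Of 24 proteases and inhibitors, 18 were above 0 (59.3% of all genes). At an unadjusted p under 0.05, 7 were higher (10.4% of all genes) and none was lower (4.51%). With all 30 libraries, 2 of the list were called higher, Timp1 among them (1.1% of all genes). The list had a median of 0.40 (0.28 without AngII+BAI libraries 1, 3 and 5).

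Growth factor genes included Igfbp2, a binding protein of insulin-like growth factors, with 179, 102, 11.6, 86.9 and 29.8 FPKM in AngII+BAI aortas, 39.6, 98.6, 148, 23.6 and 48.7 FPKM in AngII aortas and 12.6, 5.67, 11.9, 6.25 and 11.6 FPKM in Control aortas. The Control libraries were low, AngII+BAI library 3 lay among them, and the other AngII+BAI libraries and all AngII libraries lay above (fold change 2.50 ± 0.64 SE, limma adjusted p = 0.183). Fgf2, basic fibroblast growth factor, had 9.16, 25.4, 0.817, 17.4 and 12.97 FPKM in AngII+BAI aortas, against 1.15, 0.545, 0.218, 0.520 and 1.31 FPKM in Control aortas, with library 3 again the exception. Tgfb1, encoding TGF-beta 1, spanned 19.5 to 45.3 FPKM in AngII+BAI and 13.1 to 20.6 FPKM in Control aortas. The list of TGF-beta and BMP signalling genes had a median of 0.03, close to that of all genes, and of -0.12 with median ratio scaling.

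Genes of protein folding in the endoplasmic reticulum stood higher in AngII+BAI than in saline aortas, and by their median AngII stood closer to saline. The list level was 5.32, 4.88, 5.70, 5.11 and 5.18 in AngII+BAI libraries 1 to 5. It was 4.64 to 5.20 in AngII and 4.57 to 4.85 in Control libraries. AngII+BAI libraries 2, 4 and 5 thus lay within the AngII range, while AngII libraries 2, 3 and 5 lay above the Control range. When unfolded protein accumulates in this compartment, sensors in its membrane activate transcription factors that bind the endoplasmic reticulum stress response element and induce chaperones and disulfide isomerases. Of 20 listed genes, 18 had a fold change above 0 (59.3% of all genes did). All AngII+BAI libraries lay above all Control libraries for 7 of them (2.27% of all genes). None passed the adjusted threshold in the 15-library fit. At an unadjusted p under 0.05, 10 were higher (10.4% of all genes) and none was lower (4.51%). With all 30 libraries, 3 (Hsp90b1, Pdia3 and Pdia6) were called higher (1.1% of all genes). The list median was 0.51 for AngII+BAI over Control, 0.17 for AngII over Control and 0.37 for AngII+BAI over AngII. These comparisons share libraries. The AngII+BAI median was 0.44 without libraries 3 and 5 and 0.33 without libraries 1, 3 and 5.

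The promoters of 4 genes of the list are shown because they hold this element, with Hspa5 included as the usual marker of the response. The windows are RefSeq promoters of build GRCm38.p6 (300 bases, 250 before and 50 after the gene's start), written 5′ to 3′ on the gene's strand. Capitals mark the stress response element, which was searched for on both strands as CCAAT, any 9 bases and CCACG, with no other motif searched.
Hsp90b1 (chr10:86705395-86705694, minus strand): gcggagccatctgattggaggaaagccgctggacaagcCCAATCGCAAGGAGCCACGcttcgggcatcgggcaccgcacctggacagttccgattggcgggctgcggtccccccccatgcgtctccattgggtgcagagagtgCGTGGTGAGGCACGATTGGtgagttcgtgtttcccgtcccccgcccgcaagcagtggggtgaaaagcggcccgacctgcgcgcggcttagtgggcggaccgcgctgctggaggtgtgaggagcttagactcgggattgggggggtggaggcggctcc
Pdia6 (chr12:17266339-17266638, plus strand): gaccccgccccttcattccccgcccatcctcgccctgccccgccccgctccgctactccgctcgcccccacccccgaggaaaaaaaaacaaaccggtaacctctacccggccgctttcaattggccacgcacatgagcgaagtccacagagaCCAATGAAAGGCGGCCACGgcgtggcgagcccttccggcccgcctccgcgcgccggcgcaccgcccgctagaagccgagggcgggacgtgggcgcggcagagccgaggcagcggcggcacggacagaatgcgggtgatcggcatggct
Canx (chr11:50325624-50325923, minus strand): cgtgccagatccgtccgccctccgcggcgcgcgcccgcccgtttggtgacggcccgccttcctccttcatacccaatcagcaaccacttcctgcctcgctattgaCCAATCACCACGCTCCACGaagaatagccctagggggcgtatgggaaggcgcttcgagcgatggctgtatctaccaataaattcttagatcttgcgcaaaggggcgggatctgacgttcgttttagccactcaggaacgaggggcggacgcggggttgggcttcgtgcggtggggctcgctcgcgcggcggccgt
Hspa5 (chr2:34771840-34772139, plus strand): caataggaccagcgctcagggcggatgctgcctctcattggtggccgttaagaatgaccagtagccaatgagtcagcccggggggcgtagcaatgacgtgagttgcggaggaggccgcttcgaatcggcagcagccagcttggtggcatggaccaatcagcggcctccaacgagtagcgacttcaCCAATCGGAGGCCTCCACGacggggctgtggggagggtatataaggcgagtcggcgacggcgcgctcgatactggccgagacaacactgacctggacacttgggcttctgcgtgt
The element occurred in 39 of 32851 promoters (0.119%). It occurred in 6 of the 18 listed genes with a promoter in the table: Hspa5, Hsp90b1, Calr, Canx, Pdia6 and Creld2. Hsp90b1 held it 2 times, once on each strand. Pdia3 was not among the 6. The list was made of genes of this stress response, so a high share with its element says nothing about a change in these data. A match is a description of the letters, and binding was not measured.

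Hsp90b1, the large chaperone of the reticulum (ENSMUSG00000020048, chr10:86690209-86705509 on the minus strand), had 262, 172, 315, 183 and 329 FPKM in AngII+BAI aortas, 134, 139.9, 191, 136 and 174 FPKM in AngII aortas and 152, 117, 148, 131 and 144 FPKM in Control aortas. The lowest AngII+BAI libraries, 2 and 4, lay above all Control libraries but within the AngII range. The fold change was 0.82 ± 0.20 (SE; limma, adjusted p = 0.183), and the adjusted p with all 30 libraries was 0.0390, within a range of 0.0390 to 0.723 over 31 alternatives. Pdia3, a disulfide isomerase of glycoproteins, had 279, 145, 282, 164 and 309 FPKM in AngII+BAI aortas, 123, 127, 192, 117 and 164 FPKM in AngII aortas and 132, 106, 142, 107 and 129 FPKM in Control aortas, and Pdia6, a second isomerase, had 125, 69.3, 172, 75.9 and 141 FPKM in AngII+BAI aortas, 59.01, 63.7, 91.8, 55.2 and 71.7 FPKM in AngII aortas and 61.3, 52.1, 64.0, 57.7 and 59.3 FPKM in Control aortas. For both genes AngII+BAI libraries 1, 3 and 5 were well above Control and libraries 2 and 4 just above it, as for Hsp90b1. The fold changes were 0.88 ± 0.23 (SE) for Pdia3 and 0.89 ± 0.23 (SE) for Pdia6, with limma adjusted p of 0.183 and 0.183. Canx, encoding the lectin chaperone calnexin, had 86.9, 74.6, 108, 69.7 and 73.8 FPKM in AngII+BAI aortas, against 54.3, 51.2, 48.8, 56.3 and 68.2 FPKM in Control aortas, without overlap. Hspa5, the chaperone also called BiP and the gene of the list best known as a stress marker (chosen after its values were seen), had 84.2, 179.6, 355, 189.7 and 224 FPKM in AngII+BAI aortas, against 140.0, 127, 169.6, 145 and 161 FPKM in Control aortas. Its libraries overlapped widely, AngII+BAI library 1 was the lowest of the 10, and the fold change was 0.34 ± 0.32 (SE; limma, adjusted p = 0.631).

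Zinc transporters and metallothioneins stood higher as well. Of 12 tested genes of the list, 11 were above 0 (59.3% of all genes) and 4 lay above Control without overlap (2.27%). At an unadjusted p under 0.05, 6 were higher (10.4% of all genes) and none was lower (4.51%). With all 30 libraries, 3 (Mt2, Slc39a1 and Slc39a14) were called higher (1.1% of all genes). The list median was 0.53, and 0.33 without AngII+BAI libraries 1, 3 and 5. Slc39a1, a zinc importer of the cell surface, had 52.5, 44.9, 58.5, 49.1 and 80.3 FPKM in AngII+BAI aortas, 18.6, 34.3, 34.1, 24.4 and 20.8 FPKM in AngII aortas and 38.4, 36.0, 18.0, 22.7 and 20.3 FPKM in Control aortas. The AngII libraries lay within the Control range and the AngII+BAI libraries above both groups. The fold change was 1.08 ± 0.24 (SE) over Control and 1.09 ± 0.24 (SE) over AngII (limma, adjusted p = 0.183 and 0.181). Slc39a14, an importer of zinc and manganese, had 11.5, 5.66, 5.18, 5.31 and 9.15 FPKM in AngII+BAI aortas, 2.70, 2.37, 4.12, 4.94 and 2.68 FPKM in AngII aortas and 1.70, 2.17, 2.54, 1.00 and 5.24 FPKM in Control aortas, and Control library 5 slightly exceeded the lowest AngII+BAI library. Slc39a6, another importer, spanned 6.58 to 13.3 FPKM in AngII+BAI, 6.57 to 10.1 FPKM in AngII and 4.26 to 6.16 FPKM in Control aortas, so both infused groups lay above saline. The metal-binding metallothioneins were highest in library 3: Mt2 had 287, 277, 897, 127 and 227 FPKM in AngII+BAI aortas, against 139, 70.6, 66.8, 42.9 and 128 FPKM in Control aortas, and Mt1 had 464, 300.2, 1137, 193 and 263 FPKM in AngII+BAI aortas, against 183, 137, 146, 128 and 209 FPKM in Control aortas. For both genes only AngII+BAI library 4 lay within the Control range.

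**Figure D3:**
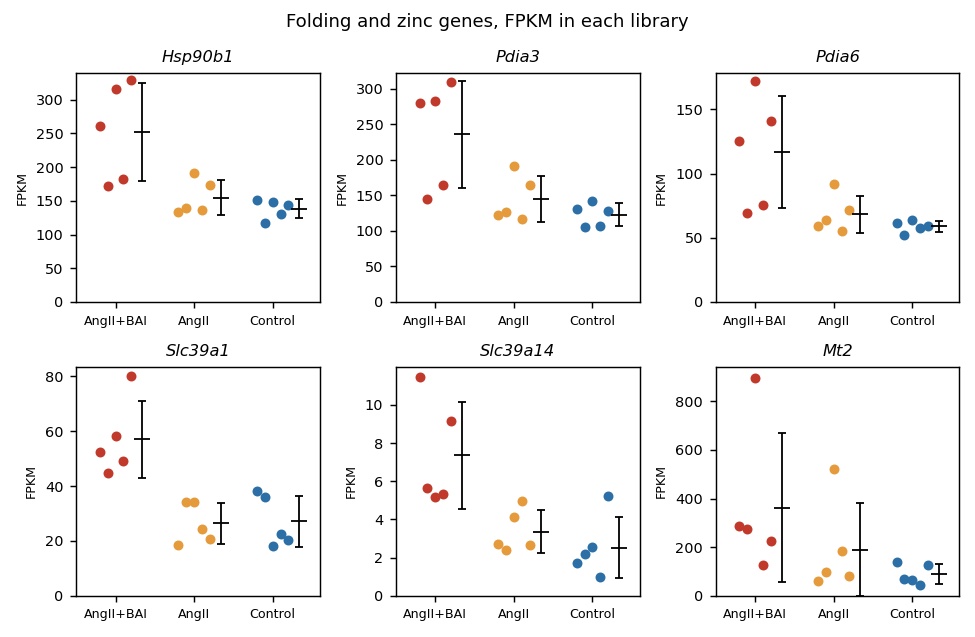
FPKM of 3 folding genes (top) and 3 zinc genes (bottom) in each of 15 libraries, with the group mean and SD as black bars, for AngII+BAI, AngII and Control aortas on linear axes from 0. The AngII+BAI points of Hsp90b1, Pdia3, Pdia6 and Slc39a1 lie above all Control points, and the AngII means lie near the Control means.

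Among genes that respond to glucocorticoids, which also induce metallothioneins, 12 of 16 were above 0 (59.3% of all genes). At an unadjusted p under 0.05, 6 were higher (10.4% of all genes) and none was lower (4.51%). Only 1 lay above Control without overlap (2.27% of all genes). The list median was 0.58, and 0.62 without AngII+BAI libraries 1, 3 and 5. With all 30 libraries, Tsc22d3 and Mt2 were called higher (1.1% of all genes). The gene that did not overlap was Tsc22d3, a leucine zipper protein induced by glucocorticoids, with 103, 52.1, 43.8, 39.6 and 69.5 FPKM in AngII+BAI aortas, 32.9, 24.1, 39.7, 30.04 and 62.2 FPKM in AngII aortas and 10.01, 14.6, 22.1, 23.1 and 24.4 FPKM in Control aortas. Its fold change was 1.64 ± 0.31 (SE; limma, adjusted p = 0.154), and AngII over Control was 0.96 ± 0.31 (SE).

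Genes of relaxation and of the contractile apparatus had list medians below 0, which moved towards 0 without some AngII+BAI libraries. Nitric oxide relaxes smooth muscle by activating soluble guanylate cyclase, whose product cyclic GMP is then degraded by phosphodiesterases. Both main subunits of the cyclase lay below all Control libraries in all AngII+BAI libraries. Gucy1a1, the alpha subunit (ENSMUSG00000033910, chr3:82092427-82145789 on the minus strand), had 21.9, 18.7, 8.50, 21.7 and 21.9 FPKM in AngII+BAI aortas, 44.6, 30.1, 25.7, 34.8 and 49.1 FPKM in AngII aortas and 36.7, 31.9, 37.7, 26.9 and 40.1 FPKM in Control aortas, with library 3 far below the others. The AngII libraries overlapped the Control range and lay above all AngII+BAI libraries, and the fold change of AngII+BAI over Control was -0.93 ± 0.25 (SE; limma, adjusted p = 0.183). Gucy1b1, the beta subunit, had 25.9, 27.0, 11.1, 29.3 and 16.4 FPKM in AngII+BAI aortas, against 36.0, 30.6, 45.3, 29.3 and 44.4 FPKM in Control aortas, where AngII+BAI library 4 and Control library 4 were at nearly the same level. The phosphodiesterases Pde5a and Pde3a had fold changes of -0.53 ± 0.19 and -0.62 ± 0.26 (SE), with overlapping ranges. Nos3, the endothelial synthase, spanned 1.51 to 10.1 FPKM in AngII+BAI and 1.37 to 3.17 FPKM in Control aortas and was highest in AngII+BAI libraries 3 and 5. Of 14 tested genes of the list, 10 were below 0 (59.3% of all genes were above 0), and the median was -0.32. At an unadjusted p under 0.05, 5 were lower (4.51% of all genes) and none was higher (10.4%). Gucy1a1 was called lower with all 30 libraries (0.333% of all genes). The median of this nitric oxide and cyclic GMP list was -0.16 without AngII+BAI library 3 and -0.05 without libraries 1, 3 and 5, and the list levels of libraries 1 and 5 (2.99 and 3.12) lay within the Control range (2.97 to 3.18).

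Among channels and calcium pumps, Atp2b4, a calcium pump of the plasma membrane, had 6.53, 24.1, 7.78, 23.2 and 11.1 FPKM in AngII+BAI aortas, against 25.8, 24.5, 26.1, 20.3 and 19.4 FPKM in Control aortas, where libraries 2 and 4 lay at the Control level and libraries 1, 3 and 5 far below it. Cacnb2, an auxiliary calcium channel subunit, and Stim1, the calcium sensor of the reticulum, had fold changes of -0.78 ± 0.29 and -0.66 ± 0.26 (SE) with overlapping ranges. Adra1d, the alpha-1D adrenergic receptor of large arteries, had 3.84, 2.08, 0.822, 1.84 and 2.16 FPKM in AngII+BAI aortas, against 2.48, 10.9, 12.4, 8.01 and 11.6 FPKM in Control aortas, and Control library 1 was within the AngII+BAI range. Rgs5, a regulator of G-protein signalling of mural cells, had 226, 384, 150.1, 255 and 205 FPKM in AngII+BAI aortas, against 886, 381, 514, 353 and 413 FPKM in Control aortas, with a single overlap between AngII+BAI library 2 and Control libraries 2 and 4. The channel list had 11 of 15 genes below 0 and a median of -0.46, or -0.19 without AngII+BAI libraries 1, 3 and 5.

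The contractile proteins themselves followed the split between AngII+BAI libraries. Myh11, the smooth muscle myosin heavy chain, had 435, 571, 69.0, 437 and 155 FPKM in AngII+BAI aortas, against 573, 474, 603, 414 and 586 FPKM in Control aortas, so libraries 1, 2 and 4 lay within the Control range and libraries 3 and 5 below it. Acta2 had 6933, 4545, 869, 4308 and 1603 FPKM in AngII+BAI aortas, against 3639, 3454, 5585, 3083 and 4548 FPKM in Control aortas, Synpo2, an actin-bundling protein, had 55.6, 58.8, 9.36, 32.2 and 13.2 FPKM in AngII+BAI aortas, against 58.1, 44.3, 68.0, 42.8 and 57.7 FPKM in Control aortas, and Itga8, an integrin of smooth muscle, had 128, 172, 24.9, 128 and 45.6 FPKM in AngII+BAI aortas, against 174, 103, 204, 161 and 172 FPKM in Control aortas. Of 21 contractile genes, 19 were below 0, none of them without overlap (1.02% of all genes), with a median of -0.47. The median was 0.07 without AngII+BAI libraries 3 and 5, and the fold change of Acta2 then turned to 0.37. Summed over the list, contractile genes came to 2351 and 3596 FPKM in AngII+BAI libraries 3 and 5, against 6789 to 11351 FPKM in Control libraries, and no tested member was at 0 in all libraries of a group.

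The second part of the question was which genes stood near saline although angiotensin II was present. Masp1, a serine protease of the lectin pathway of complement (ENSMUSG00000022887, chr16:23449417-23520815 on the minus strand), had 0.776, 0.749, 0.726, 0.807 and 0.928 FPKM in AngII+BAI aortas, 1.41, 2.31, 1.71, 2.22 and 2.91 FPKM in AngII aortas and 0.793, 0.699, 0.585, 0.904 and 0.692 FPKM in Control aortas. All AngII libraries lay above all AngII+BAI and all Control libraries. It passed the filter on low values only through the AngII libraries, so its values are given with no test. Lrrn2, a leucine-rich repeat membrane protein of neurons, had 1.29, 1.09, 1.53, 1.24 and 2.24 FPKM in AngII+BAI aortas, 2.59, 2.63, 4.33, 1.55 and 3.94 FPKM in AngII aortas and 1.14, 1.18, 0.879, 0.991 and 1.23 FPKM in Control aortas, with AngII+BAI library 5 above the lowest AngII library. Hspd1, a chaperonin of mitochondria, had 125, 62.7, 68.5, 137 and 52.6 FPKM in AngII+BAI aortas, 52.2, 42.5, 51.4, 56.1 and 45.9 FPKM in AngII aortas and 117, 121, 79.2, 115 and 86.5 FPKM in Control aortas. Its AngII libraries lay below all Control libraries. AngII+BAI libraries 1 and 4 lay above the Control range, libraries 2 and 3 between the AngII and Control ranges and library 5 within the AngII range. The fold change of Hspd1 was -0.30 ± 0.24 (SE) for AngII+BAI over Control, -1.03 ± 0.24 (SE) for AngII over Control and 0.73 ± 0.24 (SE) for AngII+BAI over AngII (limma, adjusted p = 0.572, 0.376 and 0.344). These comparisons share libraries, and 14.9%, 9.01% and 10.5% of all genes had an unadjusted p under 0.05 in them. A p that misses the threshold does not show that AngII+BAI and saline aortas were alike.

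In the renin-angiotensin system, in which renin and angiotensin-converting enzyme produce angiotensin II, 10 genes were tested, 6 above and 4 below 0. Agtr1a, the type 1 receptor, had 2.35, 3.05, 5.89, 2.70 and 5.97 FPKM in AngII+BAI aortas, 9.16, 4.13, 2.82, 7.26 and 16.0 FPKM in AngII aortas and 3.86, 3.23, 2.83, 3.70 and 3.19 FPKM in Control aortas. AngII+BAI libraries 3 and 5 were above the Control range, libraries 1 and 4 below it and library 2 within it. Ace, the converting enzyme of endothelium, had 52.4, 91.3, 22.7, 86.1 and 81.8 FPKM in AngII+BAI aortas, 105, 147, 124, 98.2 and 103 FPKM in AngII aortas and 84.4, 65.5, 75.8, 63.8 and 83.6 FPKM in Control aortas. The AngII libraries lay above all AngII+BAI and all Control libraries, and AngII+BAI library 3 was the lowest of all. Atp6ap2, the prorenin receptor and a subunit of the vacuolar proton pump, had 41.6, 31.8, 51.7, 33.2 and 45.1 FPKM in AngII+BAI aortas, against 29.1, 24.1, 26.7, 23.3 and 29.3 FPKM in Control aortas without overlap (fold change 0.58 ± 0.15 SE, limma adjusted p = 0.183). Mme, the peptidase neprilysin, had 6.42, 13.4, 11.0, 14.3 and 7.61 FPKM in AngII+BAI aortas, against 15.2, 15.4, 16.6, 19.9 and 15.7 FPKM in Control aortas, also without overlap and lower (fold change -0.65 ± 0.21 SE, limma adjusted p = 0.217). Fn1, encoding fibronectin, had 135, 516, 39.8, 255 and 287 FPKM in AngII+BAI aortas, 379.7, 431, 488, 459.7 and 279 FPKM in AngII aortas and 120.5, 89.6, 229, 182 and 197 FPKM in Control aortas, so the AngII+BAI libraries spread from below to above the Control range, and with its highest transcript alone the fold change turned from 0.24 to -1.33. Nr1d1, a repressor of the circadian clock, spanned 18.7 to 89.7 FPKM in AngII+BAI, 9.25 to 33.97 FPKM in AngII and 21.2 to 85.0 FPKM in Control aortas. Kit, the stem cell factor receptor of mast cells, had 2.33, 3.45, 3.26, 1.39 and 3.59 FPKM in AngII+BAI aortas, 6.22, 5.57, 5.39, 5.86 and 12.8 FPKM in AngII aortas and 5.88, 3.63, 4.53, 4.07 and 3.67 FPKM in Control aortas. All AngII+BAI libraries were below all Control libraries and all AngII libraries above all AngII+BAI libraries, but Control libraries 2 and 5 were within 0.1 FPKM of AngII+BAI library 5.

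**Figure D4:**
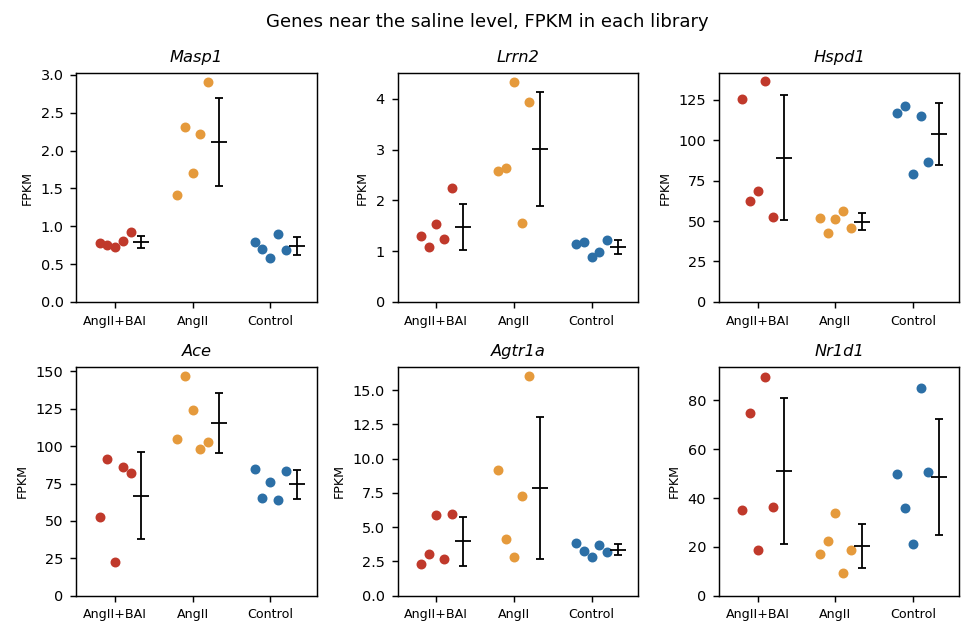
FPKM of 6 genes in each of 15 libraries, with the group mean and SD as black bars, for AngII+BAI, AngII and Control aortas on linear axes from 0. For Masp1 the 5 AngII points lie above all other points; for Hspd1 the AngII points lie below all Control points; for Agtr1a and Nr1d1 the groups overlap.

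Genes of fat and energy metabolism had medians below 0. All 27 genes of fatty acid oxidation were below 0, with a median of -0.40 (59.3% of all genes were above 0). At an unadjusted p under 0.05, 2 were lower (4.51% of all genes), and 1 lay below Control without overlap (1.02%). Without AngII+BAI libraries 3 and 5 the median was -0.09, without libraries 1, 3 and 5 it was -0.01, and without library 5 alone it was -0.17. The gene of this group without overlap was Ucp3, the uncoupling protein of muscle and brown fat, with 18.6, 23.4, 20.9, 29.7 and 11.8 FPKM in AngII+BAI aortas, 15.5, 20.8, 15.8, 30.005 and 16.7 FPKM in AngII aortas and 32.9, 33.98, 36.7, 42.9 and 30.1 FPKM in Control aortas. The AngII libraries were as low as the AngII+BAI libraries, and the fold change over Control was -0.78 ± 0.22 (SE; limma, adjusted p = 0.189). Mitochondrial transcripts took 11.3% to 19.7% of FPKM in AngII+BAI, 10.3% to 20.9% in AngII and 18.8% to 21.7% in Control libraries. mt-Co1, a subunit of cytochrome oxidase, had 18941, 31951, 28651, 31108 and 18257 FPKM in AngII+BAI aortas, against 34223, 41278, 34896, 37549.6 and 32536 FPKM in Control aortas, without overlap (fold change -0.52 ± 0.24 SE). Dgat2, the enzyme of the last step of triglyceride synthesis, had 271, 326, 124, 323 and 138 FPKM in AngII+BAI aortas, against 344, 395, 369, 679 and 339 FPKM in Control aortas without overlap. The white adipocyte list had 18 of 20 genes below 0 and a median of -0.36 (-0.27 without AngII+BAI libraries 1, 3 and 5). Summed over the list, white adipocyte genes spanned 5184 to 9468 FPKM in AngII+BAI and 7126 to 9936 FPKM in Control libraries. Whether a different share of fat in the dissected tissue bears on these values was not tested.

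Immune and proliferation genes were high mainly in AngII+BAI libraries 3 and 5. Of 20 macrophage genes 18 were above 0 (59.3% of all genes) and 3 lay above Control without overlap (2.27%). At an unadjusted p under 0.05, 10 of the 20 macrophage genes were higher (10.4% of all genes). Their median of 0.96 was 0.16 without AngII+BAI libraries 3 and 5 and 0.10 without libraries 1, 3 and 5. C1qb, a chain of the first complement component made by macrophages, had 126, 70.4, 271, 65.5 and 245 FPKM in AngII+BAI aortas, against 49.7, 44.4, 63.5, 54.5 and 59.9 FPKM in Control aortas. Libraries 2 and 4 lay just above the highest Control library and the other AngII+BAI libraries far above it. Trem2, a lipid-sensing receptor of macrophages, had 2.29, 1.66, 27.4, 1.27 and 16.3 FPKM in AngII+BAI aortas, against 1.21, 0.667, 0, 0.134 and 0.618 FPKM in Control aortas, and Ccl2, the chemokine that attracts monocytes, had 3.26, 0.736, 72.2, 0.327 and 9.07 FPKM in AngII+BAI aortas, against 0.214, 0.976, 0.866, 1.38 and 0.573 FPKM in Control aortas. Trem2 and Lgals3 were called higher with all 30 libraries (1.1% of all genes). For Trem2 every AngII+BAI library but only Control library 1 reached 1 FPKM, so it could pass the filter through AngII+BAI alone. Summed over the list, macrophage genes came to 565 to 3444 FPKM in AngII+BAI and 379.9 to 668 FPKM in Control libraries. Neutrophil markers (a list added after the data were seen) summed to 677 FPKM in AngII+BAI library 3 and 56.4 FPKM in library 5. In Control libraries they summed to 1.74 to 43.6 FPKM, but over fewer genes. Of the markers, 9 were listed for AngII+BAI and 6 for Control, where Cxcr2 and Il1r2 were not listed. The part of such cells in the values was not tested. The inflammation list (median 0.71) and the MHC class II list (0.65) came to 0.03 and -0.01 without AngII+BAI libraries 1, 3 and 5.

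Of 28 listed cell cycle genes, 20 passed the filter on low values, and all 20 were above 0 with a median of 0.70. At an unadjusted p under 0.05, 11 were higher (10.4% of all genes), and none was free of overlap (2.27% of all genes lay above Control). Cdc20, an activator of the complex that triggers anaphase, had 4.29, 2.002, 15.9, 1.36 and 8.05 FPKM in AngII+BAI aortas, against 0.807, 0.457, 0.538, 0.789 and 1.48 FPKM in Control aortas, and Ccna2, cyclin A2, had 5.20, 1.39, 16.9, 1.85 and 12.5 FPKM in AngII+BAI aortas, against 0.827, 0.591, 0.633, 0.855 and 2.23 FPKM in Control aortas. For both genes libraries 1, 3 and 5 were above all Control libraries, and at least 1 of libraries 2 and 4 overlapped them. Every AngII+BAI library reached 1 FPKM for both genes, and of the Control libraries only library 5 did. Such genes could pass the filter through the AngII+BAI libraries alone, so the count above 0 is no separate support. Cdc20, Ccna2 and Ccnb2, cyclin B2, were called higher with all 30 libraries (1.1% of all genes). Without libraries 1, 3 and 5 the median of the list was 0.01. All 38 ribosomal protein genes were above 0 with a median of 0.46, led by AngII+BAI library 1 at a mean log2 level of 8.65 against 7.25 to 7.61 in Control. Without libraries 1, 3 and 5 that median was -0.00, and without library 1 alone the ribosomal protein median was 0.28. Ribosomal protein genes have many near-identical pseudogenes, so reads may have been split between copies. Markers of other tissues varied within groups: neuron genes stood at 0.71, 0.75, 3.17, 0.60 and 3.48 in AngII+BAI libraries, 0.62 to 5.73 in AngII and 0.57 to 2.44 in Control libraries.

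**Figure D5:**
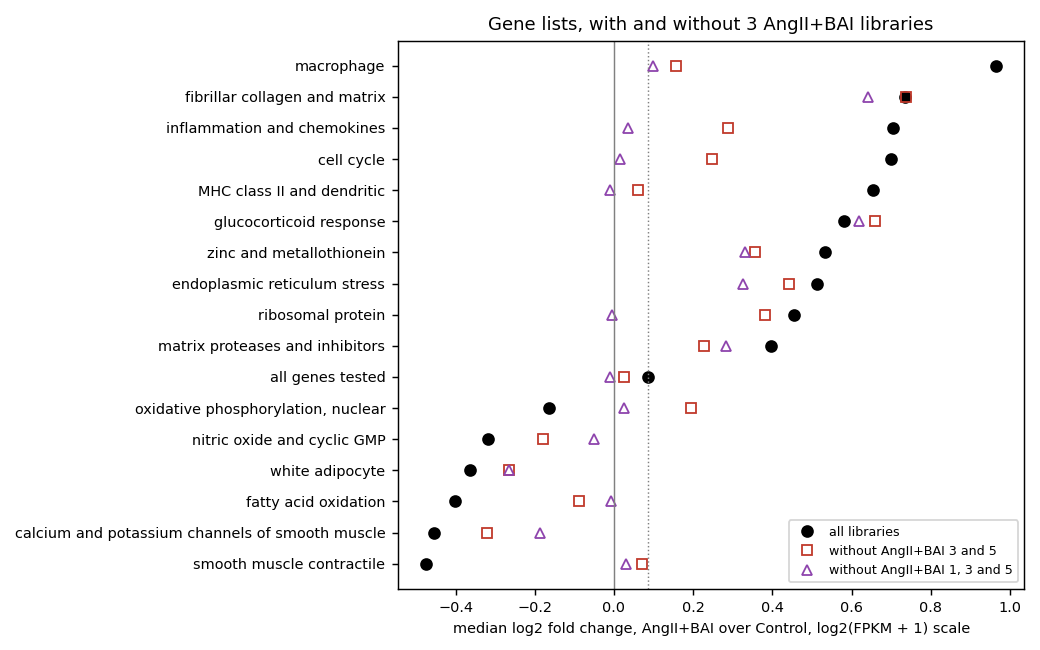
Median log2 fold change of AngII+BAI over Control for 16 gene lists and for all genes tested, with all libraries (circles), without AngII+BAI 3 and 5 (squares) and without AngII+BAI 1, 3 and 5 (triangles); the dotted line marks the median of all genes. Fibrillar collagen and matrix, glucocorticoid, zinc and endoplasmic reticulum lists stay above 0.3 in each case. The list of matrix proteases and inhibitors comes to 0.23 without AngII+BAI 3 and 5 and to 0.28 without 1, 3 and 5. Macrophage, cell cycle, ribosomal and contractile lists come to 0.1 or less without the 3 libraries.

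Genes of oxidative defence and of hypoxia had medians near that of all genes. Nfe2l2, the transcription factor NRF2, had 39.9, 44.8, 55.3, 38.8 and 48.7 FPKM in AngII+BAI aortas, against 30.2, 31.7, 35.7, 34.9 and 38.0 FPKM in Control aortas, and its target Gclm, the modifier subunit of the enzyme that starts glutathione synthesis, had 9.12, 9.42, 17.6, 9.31 and 12.9 FPKM in AngII+BAI aortas, against 7.92, 6.93, 7.25, 7.56 and 8.33 FPKM in Control aortas. Both ranges lay above Control without overlap (fold changes 0.40 ± 0.13 and 0.52 ± 0.16 SE, limma adjusted p = 0.209 and 0.209). Gstm1, a glutathione transferase, lay below it, with 140.3, 128, 74.3, 91.3 and 87.5 FPKM in AngII+BAI aortas, against 169, 165, 197, 173 and 189.6 FPKM in Control aortas (fold change -0.81 ± 0.22 SE, limma adjusted p = 0.183). The list of 30 antioxidant genes had 17 above and 13 below 0 and a median of 0.10 (-0.05 with median ratio scaling). Nfe2l2 and Gstm1 were called with all 30 libraries (1.44% of all genes were). The hypoxia and glycolysis list had a median of -0.00. Slc2a1, the basal glucose transporter, had 17.5, 12.7, 19.05, 12.9 and 12.1 FPKM in AngII+BAI aortas, 16.3, 13.5, 15.5, 10.9 and 14.3 FPKM in AngII aortas and 6.08, 7.93, 9.20, 9.54 and 11.6 FPKM in Control aortas, with all AngII+BAI libraries above all Control libraries, and Hif1a, the hypoxia-inducible factor, spanned 31.3 to 63.9 FPKM in AngII+BAI and 23.3 to 30.3 FPKM in Control aortas, also without overlap. C7, the seventh complement component, had 9.57, 51.5, 6.77, 44.2 and 20.3 FPKM in AngII+BAI aortas, against 116, 71.2, 71.4, 56.4 and 67.8 FPKM in Control aortas without overlap (fold change -1.84 ± 0.54 SE, limma adjusted p = 0.191). Vwf, the von Willebrand factor of endothelium, spanned 14.0 to 27.0 FPKM in AngII+BAI and 23.8 to 39.3 FPKM in Control aortas, which overlap. Hdc, the enzyme that makes histamine in mast cells, had 1.69, 3.81, 5.88, 1.86 and 2.47 FPKM in AngII+BAI aortas, against 0.964, 0.885, 1.56, 1.48 and 1.07 FPKM in Control aortas without overlap, and the AngII libraries lay at 0.703 to 1.62 FPKM.

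Some transcripts were listed for 1 group only. The authors' list for AngII+BAI held 43742 transcripts and the list shared by Control and AngII held 42860, with 40581 in both. The 3161 transcripts listed for AngII+BAI only had an AngII+BAI mean of at least 0.5 FPKM, and they included 583 genes with no transcript in both lists. The 5 such genes with the highest mean were high in 1 library each. The mitochondrial gene mt-Atp8 reached 4835 FPKM in AngII+BAI library 4 and was at 0.194 FPKM or less in the others; it overlaps mt-Atp6, so its reads cannot be assigned with certainty. The antibody gene segments Igkv3-4 (82.0 FPKM) and Igkv1-99 (56.6 FPKM) and Col10a1 (66.9 FPKM), a collagen of hypertrophic cartilage, were highest in library 5. Antibody segments are near copies of one another, and reads may be shared between them. Alb, encoding albumin of the liver, had 53.6 FPKM in library 1 and at most 0.972 FPKM in the other AngII+BAI libraries. Among 223 genes listed only for Control and AngII, Ndufa13, a subunit of complex I, reached 60.6 FPKM in Control library 2 alone, and the pseudogenes Gm10095 and Gm6565 and the genes Nsd1 and Sec14l4 had Control means of 2.11 to 3.99 FPKM. These values describe the lists and are no test of a difference.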

How the data were processed

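Abdominal aorta RNA was sequenced after depletion of ribosomal RNA with an NEB Ultra RNA library kit, per the labels' protocols. This kit does not mark strand, so overlapping and antisense genes cannot be told apart. The authors deposited FPKM values per transcript in group lists; every transcript listed only for AngII+BAI averaged at least 0.5 FPKM there, and every one listed only for Control and AngII did so in Control. Of the latter transcripts, 0 averaged at least 0.5 FPKM in AngII. FPKM of annotated transcripts (28499 matched to GENCODE M21) listed for both groups was summed per gene. Transcripts listed for 1 group only were left out of these sums, so a difference carried by them does not show in the gene values. AngII and Control share a list. Limma and build mm10 are named in the submitters' processing notes, and the aligner and the quantifier are not given in the sources used here. Library size was read from the steps of low FPKM values, 98.9% to 99.5% of which were whole multiples within 0.1 of a read. A floor of 3 reads is then 0.0186 to 0.0215 FPKM for a 2 kb transcript and covers counting error only.

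A gene was tested if 5 or more of the 15 AngII+BAI, AngII and Control libraries reached 1 FPKM (12667 genes), and these were fitted in limma 3.58.1 (R 4.3.3) on log2(FPKM + 1), with 1 mean per group, trend and robust moderation and 12 residual degrees of freedom, and p-values were adjusted by Benjamini and Hochberg at 0.05. Medians, ranges and figures were computed in Python 3.11.15. The fit was run on simulated data with independent noise and the same SD per gene in all groups. The simulation lacked the unequal spread and shared shifts of the AngII+BAI libraries. It therefore does not show how the fit behaves with them.

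Alternatives were the libraries fitted (the 2 groups alone, all 30), pseudocounts of 0.1 and 0.01, no filter and a filter at 5 FPKM, 3 scalings, library weights, plain moderation, other sums over transcripts, and leaving out single libraries or AngII+BAI 3 and 5 or Control 1 and 2. Leaving out AngII+BAI 1, 3 and 5 together was chosen after seeing the data. Named genes were, per direction, called genes without overlap and a mean of at least 5 FPKM (up to 12 by p) or else the 5 with the smallest p, a fixed list, up to 4 members with the smallest p of each gene list, and the 5 genes per group listed for 1 group only with the highest mean. Some genes that this rule names are not reported here. Thbs1, Hspa5 and Myl9 were chosen after their values were seen. The members and gene lists were chosen with earlier results of these data known. The lists held 882 genes in 44 lists, of which 773 were tested.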

Additional observations from a re-analysis of the deposited data

Results flagged for a closer look

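The gap of a library to the nearest other was taken on the log2(FPKM + 1) scale, and the values below are in FPKM. In 182 groups of 5 libraries, 8 held a library whose gap exceeded 0.71 of the group's range. Chance flags about 1 in 20 groups. AngII+BAI library 5 stood apart for Col5a2 (291 FPKM) and Col1a1 (2976 FPKM), and AngII+BAI library 3 for Gucy1a1 (8.50 FPKM). Control library 5 stood apart for Lims1 (19.7 FPKM), Spp1 (29.9 FPKM) and Ccna2 (2.23 FPKM). Control library 4 stood apart for Dgat2 (679 FPKM) and Control library 2 for Ccl9, a chemokine (10.9 FPKM). For Lims1, Spp1 and Ccna2, Control library 5 is the single Control library within the AngII+BAI range. For Gucy1a1, Col5a2 and Col1a1, the other AngII+BAI libraries lie on the same side of all Control libraries.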

How the results depend on the processing

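Of 2803 values of 91 genes under alternatives, 2703 kept direction and side of the threshold, 41 (13 genes) turned direction, 48 were newly past the threshold and 11 no longer past it; the cause was not tested. Limma called 4 genes higher and 1 lower with the 2 groups alone, and 146 and 44 with all 30 libraries. It called 2 higher with either smaller pseudocount, with the filter at 5 FPKM and with library weights, 3 higher and 3 lower with unlisted transcripts at 0, and 0 higher without mitochondrial genes and with the highest transcript only. It called 1 higher and 1 lower without AngII+BAI 3 and 5, and 0 higher and 1 lower both without Control 1 and 2 and without AngII+BAI 1, 3 and 5. Leaving out single libraries gave 0 to 3 higher and 0 to 4 lower. Genes with all AngII+BAI libraries above and below Control numbered 183 and 259 with median ratio scaling and 206 and 204 without mitochondrial genes. They numbered 214 and 83 with the filter at 5 FPKM. Leaving out libraries can only raise these counts, because ranges over fewer libraries overlap less easily, so the rise is no result. The counts were then 621 and 587 without AngII+BAI 3 and 5 and 493 and 308 without Control 1 and 2. They were 907 and 959 without AngII+BAI 1, 3 and 5, and 319 to 656 and 172 to 243 without single libraries. Fold changes turned to -1.33 with the highest transcript only and -0.14 without Control 1 and 2 for Fn1, to -0.0542 without AngII+BAI 3 and 5 for Hspa5, to 0.0355 without AngII+BAI 1, 3 and 5 for Atp2b4, and to -0.0167 with median ratio scaling for Masp1. Without AngII+BAI 3 and 5, and without 1, 3 and 5, they turned to 0.37 and 0.16 for Acta2, 0.0717 and 0.182 for Myl9, -0.24 and -0.17 for Agtr1a, 0.00611 and 0.256 for Ace, -0.00785 and -0.0127 for Nos3, 0.61 and 0.59 for Ucp1, and 0.48 and 0.88 for Nr1d1. Ccl2 turned to -0.21 without 1, 3 and 5, and Hspd1 to 0.00246 without 3 and 5. With library weights Agtr1a came to -0.0245, Ace to 0.0384, Ucp1 to 0.22 and Nr1d1 to 0.60, and with the highest transcript only Nr1d1 came to 0.0178. Without single libraries the ranges were -0.13 to 0.79 for Fn1, -0.0126 to 0.252 for Agtr1a, -0.45 to 0.04 for Ace, -0.43 to 0.24 for Ucp1 and -0.26 to 0.29 for Nr1d1. Leaving out 1 library moved some list medians by over 1.5 times. Without AngII+BAI 5 they came to -0.27 for smooth muscle contractile genes (-0.31 without AngII+BAI 3) and 0.39 for MHC class II and dendritic genes (0.41 without Control 2). They came to 0.56 for macrophage genes without AngII+BAI 3, and to 0.62 and 0.25 for matrix proteases and inhibitors without AngII+BAI 1 and without Control 2.

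Differences in FPKM near the floor of a library were not detectable at this depth, and FPKM shares move with mitochondrial transcripts. No paired analysis was possible because the labels give no replicate numbers that the groups share.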

Other observations

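Gene lists not described above moved with the libraries that stood apart. Endothelial genes had 8 of 19 members above 0 and a median of -0.16, which turned to 0.12 without AngII+BAI library 1. Genes of the fibroblast and adventitial list had 8 of 17 members above 0 and a median of -0.01, which was 0.11 without AngII+BAI library 3 and 0.28 without libraries 3 and 5. Genes of brown adipocyte thermogenesis had a median of -0.23, which turned to 0.08 without AngII+BAI libraries 3 and 5 and to 0.15 without libraries 1, 3 and 5. Genes of oxidative phosphorylation, nuclear, had a median of -0.17, which turned to 0.08 without AngII+BAI library 5 and to 0.19 without libraries 3 and 5. Mitochondrially encoded genes had a median of -0.51, which was -0.07 without AngII+BAI libraries 1, 3 and 5 and -0.20 after quantile normalization. The median of lipid and cholesterol synthesis was -0.25, and -0.02 both without AngII+BAI libraries 3 and 5 and without Control libraries 1 and 2. The complement median was 0.19, and turned to -0.05 without AngII+BAI library 5 and to -0.12 without libraries 1, 3 and 5.

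Other tissues showed in single libraries. Liver markers (a list added after the data were seen) summed to 157 FPKM in AngII+BAI library 1, against 3.52 to 6.74 FPKM in the other AngII+BAI libraries. In Control libraries the sum was 2.31 to 4.12 FPKM, but over fewer genes. Of 13 markers, 9 were listed for AngII+BAI and 3 for Control, where Alb, Apoa1 and Apoa2 were not listed. The sums of the 2 groups thus cannot be compared directly. Skeletal muscle genes had a median of 0.24 in AngII+BAI over Control, which was -0.52 without AngII+BAI libraries 3 and 5 and 2.71 without Control libraries 1 and 2. B and T lymphocyte genes had a median of 0.20, and -0.65 without AngII+BAI libraries 3 and 5.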
